A study of Arabidopsis thaliana with 12 samples.

Results

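The genes described here make, modify or export the wax of the plant cuticle. They are KCS1, CER1, CER2, CER3, CER4, CER5, CER6, WSD1 and MAH1, and the set was chosen by measured values: KCS1 had been seen at a higher FPKM in 1 mutant line, trb45 line 1, than in WT. Of the 9 named genes, 8 were among the 20114 genes listed for every group, and MAH1 was listed for none. Line 1 is therefore given as a description with no test. The libraries came from whole seedlings of Arabidopsis thaliana aged 7 days, grown on medium with 1% sucrose at 23 °C under 16 h of light after 2 days in the cold and dark. There were 4 groups of 3 libraries, and no group received a treatment. WT was the Col-0 accession, trb45 line 1 and trb45 line 2 were independently made mutants named for TRB4 and TRB5, and trb123 was a triple mutant named for TRB1, TRB2 and TRB3. TRB proteins bind telomere repeats, and the study compared both lines with WT and trb123. The mutant alleles are not given in the sources used here.

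The cuticle is a lipid layer that the epidermis of shoots lays down on its outer face, where it limits loss of water. Its wax is built from fatty acids that a complex in the endoplasmic reticulum lengthens to very long chains, beginning with a condensing enzyme of the KCS family. The chains then leave by an alkane-forming branch or an alcohol-forming branch, some products are oxidised or joined into esters, and transporters carry the wax out of the cell. KCS1 and CER6 (also named KCS6) are condensing enzymes, and CER2 is a BAHD-family protein that works with CER6 to reach the longest chains. CER1 and CER3 act together in alkane formation, CER4 is a reductase that makes primary alcohols, WSD1 joins alcohols and acyl chains into wax esters, and MAH1 is a cytochrome P450 that hydroxylates alkanes. CER5 (also named ABCG12) is a transporter of wax at the plasma membrane.

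In the RefSeq annotation of TAIR10.1, KCS1 (AT1G01120) lies on the minus strand at chr1:57164-59215 in 1 exon, and CER6 (AT1G68530) on the minus strand at chr1:25712414-25715024. CER1 (AT1G02205) lies on the plus strand at chr1:418416-422579, and CER5 (AT1G51500) on the minus strand at chr1:19097712-19101265. CER2 (AT4G24510, chr4:12660687-12662656, plus strand) is overlapped on the other strand by AT4G24520 and AT4G07275. The libraries were stranded, but whether the counting used strand is not given in the sources used here, so CER2 values may hold fragments of those genes. CER3 (AT5G57800) lies at chr5:23420184-23424117, CER4 (AT4G33790) at chr4:16204096-16207956 and WSD1 (AT5G37300) at chr5:14767426-14770396. No stretch of 50 bases in the exons of any of the 9 genes occurred elsewhere in that genome.

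The sequences before the gene starts are shown because TRB proteins are known to bind the telobox, a short telomere-like motif, and are given for 4 genes of elongation, alkane formation and export and for the one that holds it. Each run is the 250 bases before the annotated start, 5′ to 3′ on the strand of the gene, from TAIR10.1: chr1:59216-59465 for KCS1, chr1:25715025-25715274 for CER6, chr1:19101266-19101515 for CER5, chr1:418166-418415 for CER1, all in lower case, and chr5:14767176-14767425 for WSD1, where the capitals mark the telobox.
KCS1: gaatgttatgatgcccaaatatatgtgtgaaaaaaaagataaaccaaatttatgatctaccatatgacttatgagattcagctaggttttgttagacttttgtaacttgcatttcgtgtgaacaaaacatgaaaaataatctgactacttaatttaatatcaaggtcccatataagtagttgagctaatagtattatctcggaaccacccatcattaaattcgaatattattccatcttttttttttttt
CER6: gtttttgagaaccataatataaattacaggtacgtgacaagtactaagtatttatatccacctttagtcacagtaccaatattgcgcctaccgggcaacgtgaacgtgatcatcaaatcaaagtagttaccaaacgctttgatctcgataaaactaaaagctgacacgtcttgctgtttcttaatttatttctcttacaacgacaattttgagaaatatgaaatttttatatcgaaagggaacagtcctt
CER5: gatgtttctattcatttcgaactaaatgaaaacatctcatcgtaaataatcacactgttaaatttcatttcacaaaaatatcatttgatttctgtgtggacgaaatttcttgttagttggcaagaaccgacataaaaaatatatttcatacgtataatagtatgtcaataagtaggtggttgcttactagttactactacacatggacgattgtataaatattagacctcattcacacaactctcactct
CER1: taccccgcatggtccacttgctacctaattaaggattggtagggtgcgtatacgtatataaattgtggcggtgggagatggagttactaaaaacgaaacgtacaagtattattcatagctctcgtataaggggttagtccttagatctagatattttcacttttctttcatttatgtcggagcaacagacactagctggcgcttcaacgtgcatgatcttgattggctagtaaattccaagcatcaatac
WSD1: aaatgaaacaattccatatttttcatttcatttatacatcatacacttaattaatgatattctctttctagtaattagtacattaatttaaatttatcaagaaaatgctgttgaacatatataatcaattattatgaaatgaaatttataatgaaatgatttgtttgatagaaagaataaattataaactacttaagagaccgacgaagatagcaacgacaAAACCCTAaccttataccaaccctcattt

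Motifs were searched on both strands from 250 bases before to 50 bases after the start. The telobox, AAACCCTA, was in 1 of the 9 wax genes, WSD1, at base -29, and in 5.51% of 20019 promoters of the same length. The L1 box, TAAATGCA or TAAATGTA, a motif of epidermal promoters, was also in 1 of the 9, CER5, within the first bases after the start, at base 3, on the strand opposite to the gene, and in 5.14% of all promoters. The GCC box, GCCGCC, a motif of AP2/ERF factors, and the G box, CACGTG, were in none of the 9, against 2.65% and 8.89% of all promoters. KCS1, CER6 and CER1 therefore had none of the 4 motifs in this window.

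The values are the authors' FPKM, that is fragments divided by gene length and by the size of the library, so levels of different genes can be set beside each other. Inferred depths were 22540000 to 24340000 fragments per library, at which 1 fragment of a wax gene was worth 0.0114 to 0.0273 FPKM. TRB1, TRB2 and TRB3 were low in trb123 (0.76, 2.77 and 1.6 against 10.27, 12.02 and 7.47 FPKM in WT), and TRB5 (11.8 in WT, 3.25 in line 1, 3.12 in line 2) and TRB4 (9.19, 4.29 and 5.15) were low in both trb45 lines. The 12 libraries were placed over 226 genes chosen as lower in line 1 replicate 3 than in replicates 1 and 2 of that line. None of these genes was on a list used here. The libraries fell into sides that kept WT, line 2 and trb123 each whole and divided only line 1, as the choice of genes had set. On a scale from 0, for replicates 1 and 2, to 1, for replicate 3, WT lay at -0.02 to 0.02, line 2 at 0.93 to 0.99 and trb123 at 0.86 to 0.9. The labels name no batch. Line 2 or trb123 against WT therefore cannot be told apart from this split, and a fit with the split as a term rests on 1 library, line 1 replicate 3. Trb123 and line 2 lay on the same side. The labels do not say whether the libraries of a group came from separate plates or pools of seedlings, so the p-values measure the spread between these libraries, which may be technical.

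**Figure D1:**
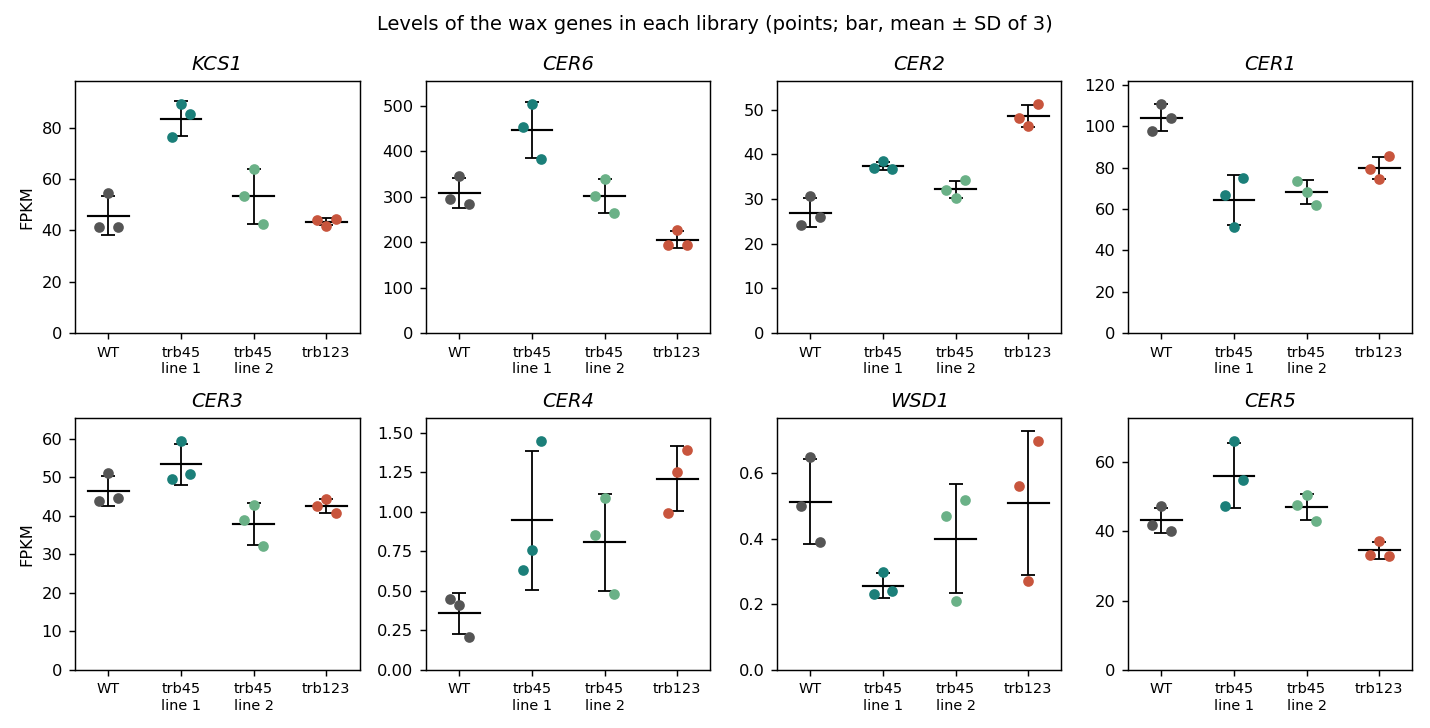
FPKM of the 8 listed wax genes in each of the 12 libraries (points, 3 per group, in replicate order), with the mean (bar) and SD (whiskers) of each group on axes that start at 0. KCS1 lay at 76.26 to 89.29 FPKM in line 1 and at 41.29 to 64 FPKM in the other 9 libraries, CER1 was highest in WT, and CER2 was highest in trb123.

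The condensing enzymes KCS1 and CER6 had their highest levels in trb45 line 1. KCS1 was at 41.43, 54.5 and 41.29 FPKM in the 3 WT libraries, at 76.26, 89.29 and 85.26 in line 1, at 53.53, 64 and 42.5 in line 2, and at 43.92, 41.84 and 44.63 in trb123. All line 1 libraries lay above all others, while the libraries of WT, line 2 and trb123 overlapped. The line 1 mean of 83.6 ± 6.67 FPKM was 1.83 times the WT mean of 45.74 ± 7.59 (SD, n = 3), which is the difference that chose the gene. Without line 1 replicate 3 the difference was 0.85 on the log2(FPKM + 1) scale, against 0.87 with it. In line 2 KCS1 was not called against WT (log2 fold change 0.21, SE 0.14, limma adjusted p = 0.285), and in trb123 it was not either (-0.06, SE 0.14, adjusted p = 0.734). The WT values had entered the choice of the gene, so neither is read as support. In trb123 against line 2, where no library had, KCS1 was not called (-0.27, SE 0.14, adjusted p = 0.131). It was called there under quantile scaling (-0.39, adjusted p = 0.0356) and without line 2 replicate 3 (-0.42, adjusted p = 0.0219). Here and below, log2 fold changes are differences of log2(FPKM + 1), and called means an adjusted p under 0.05, adjusted over the 18700 genes tested.

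CER6 had the highest level of the 8 genes in every group, above at least 98% of listed genes. Its WT libraries were at 293.95, 345.99 and 284.32 FPKM, line 1 at 452.68, 504.16 and 383.36, line 2 at 302.38, 339.55 and 263.3, and trb123 at 193.9, 226.63 and 194.09. Line 1 lay above and trb123 below the other groups with no overlap, and WT and line 2 overlapped. The trb123 mean of 204.87 ± 18.84 FPKM was 0.665 times that of WT, 308.09 ± 33.18 (SD, n = 3), and CER6 was called lower (log2 fold change -0.58, SE 0.13, limma adjusted p = 0.00178). With a term for the split of libraries that difference was -0.27 (adjusted p = 0.358) and no longer called. Against line 2, where both groups lay on the same side of the split, CER6 was also lower in trb123 (-0.55, SE 0.13, adjusted p = 0.00314). In line 2 it was not called against WT (-0.03, SE 0.13, adjusted p = 0.874).

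CER2, the partner of CER6 in elongation, went the other way in trb123. It was at 24.19, 30.61 and 26.02 FPKM in WT, at 36.92, 38.47 and 36.68 in line 1, at 32.08, 30.26 and 34.15 in line 2, and at 48.1, 46.41 and 51.28 in trb123. The trb123 libraries lay above all others and the line 1 libraries above the remaining 6, while WT and line 2 overlapped. CER2 was called higher in trb123 than in WT (48.6 ± 2.47 against 26.94 ± 3.31 FPKM, log2 fold change 0.83, SE 0.1, limma adjusted p = 1.16e-05). It remained called with the term for the split (0.87, adjusted p = 0.00264), and was higher in trb123 than in line 2 (0.58, SE 0.1, adjusted p = 0.000258). The line 2 difference from WT missed the threshold (0.25, SE 0.1, adjusted p = 0.0642) and passed it under quantile scaling (0.29, adjusted p = 0.0368) and without WT replicate 2 (0.34, adjusted p = 0.0258).

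Of the alkane-forming pair, CER1 fell in line 2 and in trb123. Its levels were 97.57, 110.72 and 104.03 FPKM in WT, 66.78, 51.08 and 74.76 in line 1, 73.56, 68.39 and 62.03 in line 2, and 79.18, 74.66 and 85.51 in trb123. Every mutant library lay below every WT library, and the line 1 and line 2 libraries overlapped. The WT mean was 104.11 ± 6.58 FPKM, and the means of line 1, line 2 and trb123 were 64.21 ± 12.05, 67.99 ± 5.78 and 79.78 ± 5.45 (SD, n = 3). CER1 was called lower than WT in line 2 (log2 fold change -0.61, SE 0.13, limma adjusted p = 0.00409), a call kept with the term for the split (-0.96, adjusted p = 0.0478). It was also called lower in trb123 (-0.38, SE 0.13, adjusted p = 0.0205), likewise with that term (-0.73, adjusted p = 0.0147). Leaving out WT replicate 2 (adjusted p = 0.0725), WT replicate 3 (0.0502), trb123 replicate 1 (0.0532) or trb123 replicate 2 (0.0695) ended the trb123 call, and over all alternatives the adjusted p ran from 0.00144 to 0.0725. Between trb123 and line 2 the difference was not called (0.23, SE 0.13, adjusted p = 0.15), although their libraries did not overlap. In line 1 the log2 difference from WT was -0.7, and -0.82 without replicate 3.

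CER3, which acts with CER1, was not called in any of the 3 comparisons. It was at 43.83, 50.97 and 44.63 FPKM in WT, 49.62, 59.48 and 50.86 in line 1, 38.82, 42.82 and 32.04 in line 2, and 42.54, 44.44 and 40.57 in trb123. The line 2 libraries lay just below those of WT, and all other pairs of groups except line 1 with line 2 or trb123 overlapped. For line 2 against WT the log2 fold change was -0.29 (SE 0.12, limma adjusted p = 0.0695), which passed the threshold without line 2 replicate 2 (-0.39, adjusted p = 0.0384). For trb123 against WT it was -0.12 (SE 0.12, adjusted p = 0.373).

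CER4 and WSD1, of the alcohol and ester branch, were near the lower end of the measured range. CER4 was at 0.45, 0.41 and 0.21 FPKM in WT, 0.63, 0.76 and 1.45 in line 1, 0.85, 1.09 and 0.48 in line 2, and 0.99, 1.25 and 1.39 in trb123. All mutant libraries lay above those of WT, and the 3 mutant groups overlapped one another. CER4 passed the filter of 1 FPKM in 3 libraries through 4 mutant libraries alone, so it had to differ from WT to be tested. Its values are therefore given as levels with no test: the WT mean was 0.36 ± 0.13 FPKM, and the means of line 1, line 2 and trb123 were 0.95 ± 0.44, 0.81 ± 0.31 and 1.21 ± 0.2 (SD, n = 3). WSD1 was at 0.5, 0.65 and 0.39 FPKM in WT, 0.23, 0.3 and 0.24 in line 1, 0.47, 0.21 and 0.52 in line 2, and 0.56, 0.27 and 0.7 in trb123. It did not pass the filter and was not tested, and its line 1 libraries lay below those of WT while those of line 2 and trb123 overlapped WT.

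CER5, the exporter, was like CER6 highest in line 1 and lowest in trb123. It was at 41.95, 47.24 and 40.21 FPKM in WT, 47.39, 66.21 and 54.75 in line 1, 47.7, 50.39 and 43.01 in line 2, and 33.22, 37.33 and 32.91 in trb123. The trb123 libraries lay below all others, and the lowest line 1 library was just above the highest WT library. CER5 was called lower in trb123 than in WT (34.49 ± 2.47 against 43.13 ± 3.66 FPKM, log2 fold change -0.31, SE 0.12, limma adjusted p = 0.0388). That call was lost with the term for the split (-0.28, adjusted p = 0.36) and without any of 5 libraries: WT replicate 1 (adjusted p = 0.0683), WT replicate 2 (0.141), line 2 replicate 1 (0.0525), trb123 replicate 1 (0.106) or trb123 replicate 3 (0.113). Against line 2, CER5 was lower in trb123 (-0.44, SE 0.12, adjusted p = 0.00864). In line 2 it was not called against WT (0.12, SE 0.12, adjusted p = 0.467).

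Of the 7 wax genes tested, 1 was called in line 2 against WT, where 30.5% of all tested genes were called. In trb123 against WT 5 were called, 2 higher and 3 lower, against 59.4% of all genes. 1 of the higher genes was CER4, which entered the fit only through mutant libraries, so this count is not read as support. With the term for the split 2 were called, against 28% of all genes. In trb123 against line 2, the comparison in which no library had entered the choice of genes, 3 were called, 1 higher and 2 lower, against 51.7% of all genes. The median log2 fold change of the 7, CER4 included, was 0.12, -0.12 and 0.17 in these comparisons, beside 0.01, 0.07 and 0.07 over all tested genes. These comparisons share libraries, so their counts are not independent of one another. In line 1, 6 of the 7 did not overlap WT, 5 higher and 1 lower, where 33.9% of all genes did not overlap; nothing is read from this count, since that contrast chose the set.

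**Figure D2:**
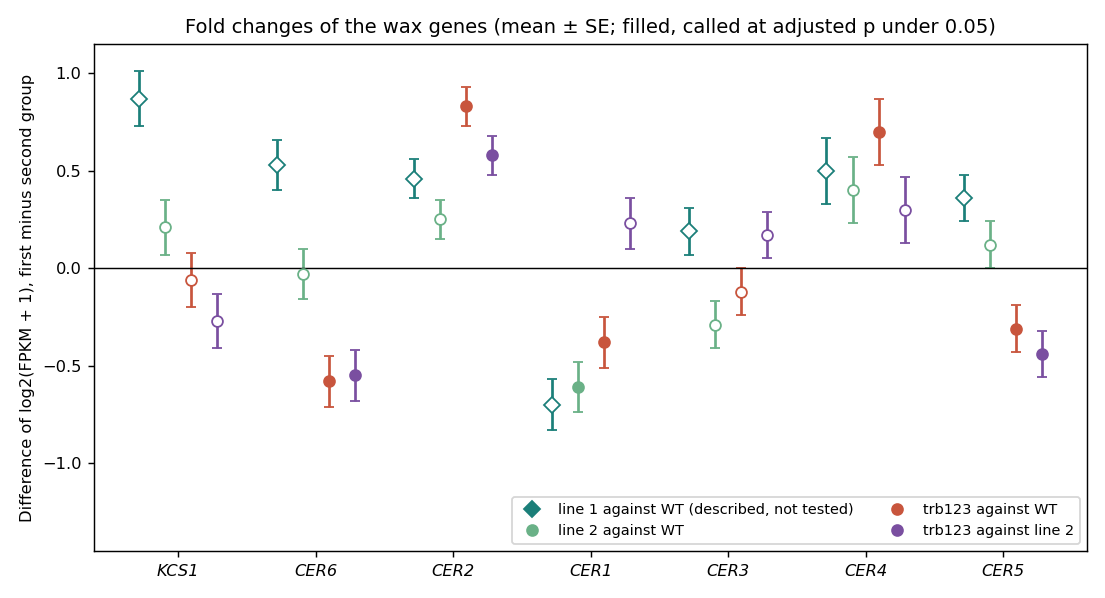
Differences of log2(FPKM + 1) (points) with their SE (whiskers) for the 7 tested wax genes, for each mutant group against WT and for trb123 against line 2. Filled points were called, and the line 1 values (diamonds) and CER4, which passed the filter only through mutant libraries, are a description. CER1 is below 0 in every group against WT, and CER2 and CER6 lie on opposite sides of 0 in trb123.

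Over the 12 libraries Pearson's r of log2(FPKM + 1) was 0.93 between CER5 and CER6, 0.85 between KCS1 and CER6 and 0.84 between KCS1 and CER5. It was 0.71 between CER2 and CER4, -0.4 between CER2 and CER6, and lowest between KCS1 and CER1, at -0.55. These values describe 12 libraries that share their groups and the split given above, and the line 1 and WT values of KCS1 that chose the set enter them. CER5 and CER6 were also both highest in replicate 2 of every group. The tested genes most like KCS1 over the 12 libraries were AT5G62360 (r = 0.966), AT5G64100 (0.95) and RALF1 (0.94), a gene for a small secreted peptide. AT5G64100 had means of 198 FPKM in line 1 and 133 in line 2, against 95.6 in WT and 98 in trb123. Those most like CER6 were AT1G72430 (r = 0.984) and the condensing enzymes KCS9 (0.983) and KCS3 (0.977). KCS9 had means of 29.8, 39.3, 27.5 and 19.3 FPKM in WT, line 1, line 2 and trb123. Those most like CER1 were AT3G28040 (r = 0.975), 4CL3 (0.959), which encodes a 4-coumarate CoA ligase, and AT5G43790 (0.942). 4CL3 had means of 13.2, 6.95, 7.42 and 9.14 FPKM in the same order.

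**Figure D3:**
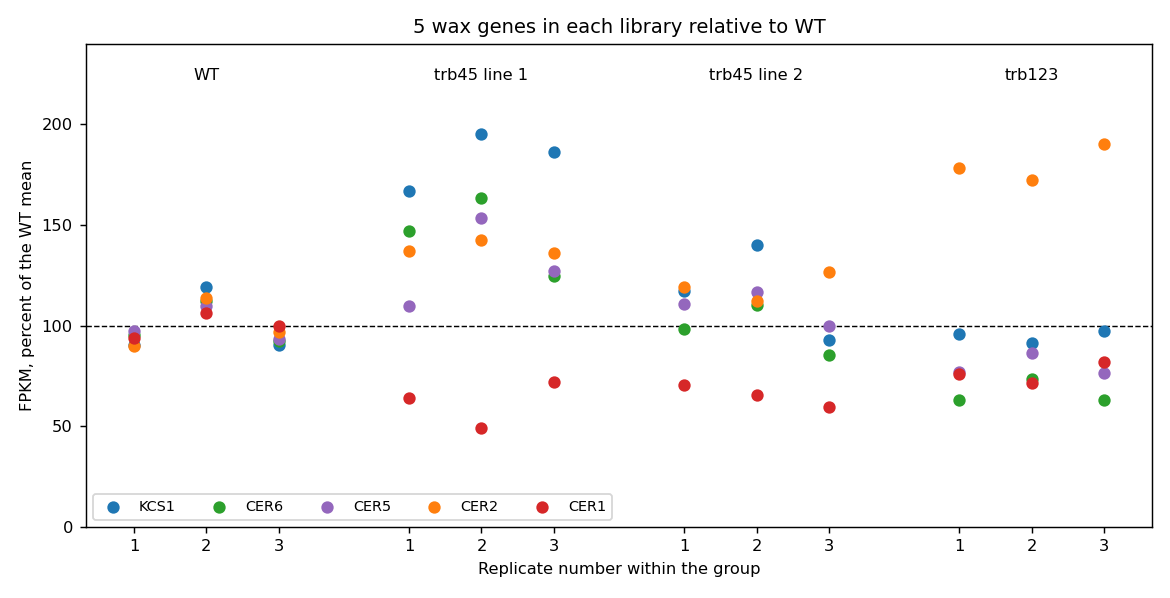
FPKM of KCS1, CER6, CER5, CER2 and CER1 in each library as a percent of the gene's WT mean (dashed line, 100). In line 1 KCS1, CER6, CER5 and CER2 lie above the line and CER1 below it, and in trb123 CER2 lies apart above the other 4.

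Of 40 other genes of wax elongation, modification, export and regulation, 35 were listed for every group and tested. In line 2 against WT 13 were called (4 higher, 9 lower, 37.1%, against 30.5% of all genes). With the term for the split none was, against 0.679% of all genes (9 of the 35 had an unadjusted limma p under 0.05). In trb123 against WT 19 were called (9 higher, 10 lower, 54.3%, against 59.4% of all genes), among them 3 higher and 5 lower of 15 elongation genes, and 3 higher and 4 lower of 12 regulators. AT1G02190, which passed the filter only with the trb123 libraries, is among the lower genes in line 2 against WT. It is among the higher genes in trb123 against WT and against line 2, so its calls are not read as support. SHN2, which is among the lower genes in each comparison, passed it only with the WT libraries. In trb123 against line 2 20 were called, 9 higher and 11 lower (57.1%, against 51.7% of all genes). Their median log2 fold changes were -0.08, 0.01 and 0.08. Of 12 cutin genes, which build the polymer part of the cuticle, 3 were higher and 7 lower in trb123 than in WT (83.3%), and of 10 suberin genes 2 were lower (20%), where 59.4% of all genes were called. With the term for the split 5 cutin genes and 1 suberin gene were called, against 28% of all genes. The suberin count was 4 with median-ratio or quantile scaling, and 6 when only WT and trb123 were fitted.

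Among the elongation genes, the relatives of CER2 changed in the opposite direction to CER2 in trb123 against WT. CER26 was at 59.43, 65.11 and 53.87 FPKM in WT, 65.2, 66.72 and 43.44 in line 1, 38.75, 41.31 and 39.6 in line 2, and 15.74, 17.41 and 14.7 in trb123. The trb123 libraries were far below all others (log2 fold change against WT -1.83, SE 0.14, limma adjusted p = 4.31e-07), also with the term for the split (-1.24, adjusted p = 0.000194). In line 2 CER26 was called lower than WT (-0.56, SE 0.14, adjusted p = 0.0114), and with that term its value was 0.03 (adjusted p = 0.96). Against line 2 CER26 was lower in trb123 (-1.27, SE 0.14, adjusted p = 1.09e-05). CER26-LIKE (AT3G23840) was at 20.47, 21.6 and 21.4 FPKM in WT, 16.16, 17.27 and 8.81 in line 1, 7.27, 5.52 and 6.8 in line 2, and 5.99, 8.04 and 6.37 in trb123. It was called lower than WT in line 2 (-1.56, SE 0.2, adjusted p = 0.00028) and in trb123 (-1.51, SE 0.2, adjusted p = 2.81e-05). Between trb123 and line 2 it was not called (0.05, SE 0.2, adjusted p = 0.85). Its lowest line 1 library was replicate 3, and with the term for the split the values were -0.71 (adjusted p = 0.149) and -0.66 (adjusted p = 0.0306). KCS12, a further condensing enzyme of the KCS family, was higher in trb123 (17.57 against 6.23 FPKM, 1.35, SE 0.17, adjusted p = 2.77e-05) and in line 2 (9.97 FPKM, 0.61, SE 0.17, adjusted p = 0.02; with the term for the split 1.13, adjusted p = 0.083). The line 2 call of KCS12 was also lost without WT replicate 1 (adjusted p = 0.0806), WT replicate 3 (0.0613) or line 2 replicate 2 (0.0728).

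AT1G02190, the neighbour of CER1, had a higher level in trb123 than in any other group. It is annotated as a fatty acid hydroxylase and ends 388 bases before CER1 on the same strand. It was at 1, 1.27 and 0.82 FPKM in WT, 0.66, 0.37 and 0.68 in line 1, 0.47, 0.38 and 0.8 in line 2, and 11.08, 13.06 and 12.64 in trb123. The trb123 libraries lay far above all others, at a mean of 12.26 FPKM against 1.03 in WT. The gene passed the filter of 1 FPKM in 3 libraries only with the trb123 libraries, since 2 others reached it, so no test of it is given. ADS4, a desaturase that acts on wax chains, was at 3.47, 3.55 and 3.38 FPKM in trb123 against 0.65, 0.72 and 1.37 in WT (log2 fold change 1.24, SE 0.17, limma adjusted p = 4.22e-05).

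The regulators with changes of at least 2-fold included activators and a repressor. MYB106 and MYB16, MIXTA-like factors that promote cuticle formation, were lower in trb123 than in WT (1.61 against 6.92 FPKM, log2 fold change -1.6, limma adjusted p = 1.21e-06, and 5.31 against 12.48 FPKM, -1.11, adjusted p = 2e-04). With the term for the split MYB16 was no longer called (-0.68, adjusted p = 0.112). Against line 2, which lay on the same side of the split, MYB16 was lower in trb123 (-1.03, SE 0.18, adjusted p = 0.000418). SHN2, an AP2/ERF activator of cuticle genes, was at 1.23, 1.62 and 1.82 FPKM in WT and at 0, 0.05 and 0.04 in trb123. It reached 1 FPKM in 5 libraries, 3 of them WT, so it passed the filter only with the WT libraries and no test of it is given. In line 2 SHN2 was at 0.79, 0.8 and 0.84 FPKM. MYB106 was called lower than WT in line 2 too (-0.64, limma adjusted p = 0.00528), but not with the term for the split (-0.39, adjusted p = 0.533). Among the activators that rose, named after their values were seen because their ratio of FPKM was over 2, MYB30 was at 18.61 FPKM in trb123 against 9.14 in WT (0.95, SE 0.14, adjusted p = 8.15e-05; with the term for the split 1.35, adjusted p = 0.000841). WRI4 was at 7.99 FPKM in line 2 against 3.73 in WT (0.93, SE 0.15, adjusted p = 0.00122; with that term 1.18, adjusted p = 0.0747). DEWAX, an AP2/ERF repressor of wax genes, was at 25.37, 29.18 and 26.73 FPKM in WT, 63.46, 107.77 and 86.7 in line 1, 70.73, 80.93 and 60.05 in line 2, and 28.3, 44.02 and 28.35 in trb123. All line 1 and line 2 libraries lay above all WT and trb123 libraries. DEWAX was called higher in line 2 than in WT (1.34, SE 0.2, adjusted p = 0.000681; with the term for the split 1.27, adjusted p = 0.141) and lower in trb123 than in line 2 (-1.07, SE 0.2, adjusted p = 0.000569). GPAT6, an acyltransferase of cutin synthesis, was lower in trb123 than in WT (3.21 against 13.68 FPKM, -1.8, SE 0.1, adjusted p = 2.58e-08).

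**Figure D4:**
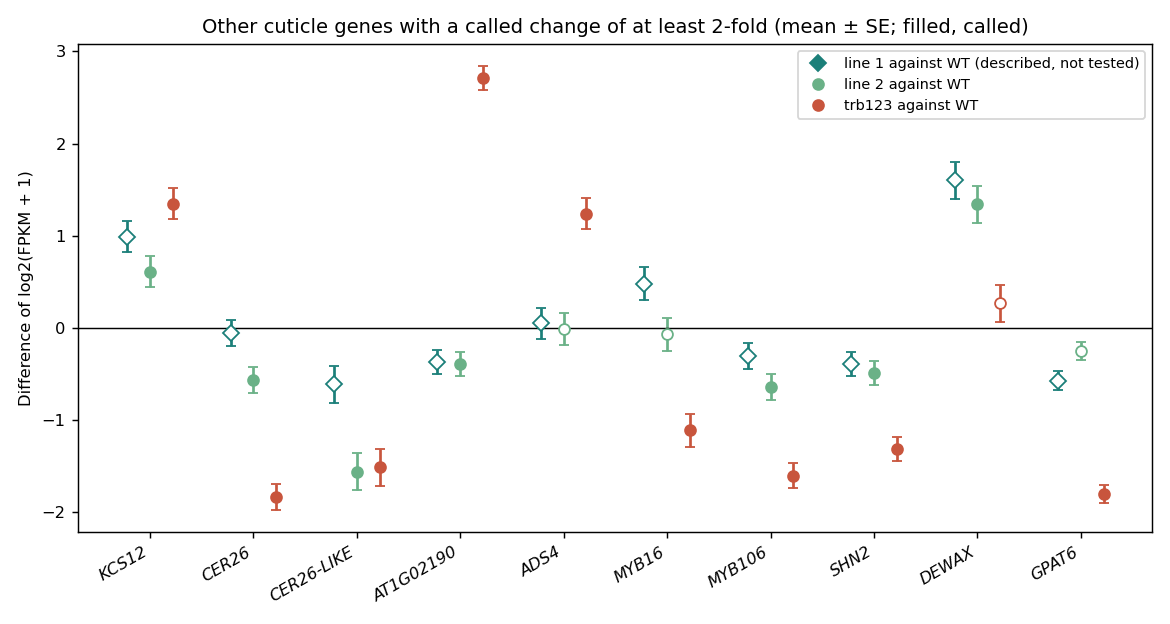
Differences of log2(FPKM + 1) from WT (points) with their SE (whiskers) for the 10 other cuticle genes called with a change of at least 2-fold in line 2 or trb123. Filled points were called, and line 1 (diamonds) is a description. AT1G02190, which passed the filter only with the trb123 libraries, stands highest in trb123, and DEWAX is high in both trb45 lines and not in trb123. SHN2 passed the filter only with the WT libraries, and the points of SHN2 and AT1G02190 are a description.

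Markers of the shoot epidermis, the tissue that makes the cuticle, are given beside the wax genes. None of its 6 markers was at 0 in any group, and 5 were called lower in trb123 than in WT, where 59.4% of all genes were called, among them ATML1 (11.3 against 20.83 FPKM, log2 fold change -0.83, limma adjusted p = 1.65e-05), and 2 of the 6 were called with the term for the split, against 28% of all genes. ACR4, was not called (0.08, adjusted p = 0.556). In line 2 against WT 1 marker, PDF1, was called lower (-0.83, limma adjusted p = 0.0172), where 30.5% of all genes were called. None was called with the term for the split, against 0.679% of all genes. Nor was any without WT replicate 3 or without line 2 replicate 2. The sum of the markers other than PDF1 was 51.4 to 54 FPKM in WT, 52.2 to 59.3 in line 1, 45.4 to 51.4 in line 2 and 31.7 to 37.3 in trb123. With PDF1 it was 1020 to 1110, 518 to 920, 464 to 732 and 581 to 778 FPKM. In whole seedlings, fewer epidermal cells and less RNA per cell cannot be told apart. The part of these markers in the falls of CER1, CER5 and CER6 and in the rise of CER2 was not tested. The 6 root endodermis markers summed to 80.8 to 94.4 FPKM in WT, 98.8 to 114 in line 1, 63.6 to 104 in line 2 and 52.2 to 54.4 in trb123. CASP1 alone had means of 53.38 FPKM in WT and 27.4 in trb123. In trb123 against WT 3 of the 6 were called lower and 1, MYB36, higher (5.26 against 3.07 FPKM, 0.62, limma adjusted p = 0.000977), where 59.4% of all genes were called. With the term for the split 3 were called, against 28% of all genes. Of 6 flower identity genes, the 3 listed for every group summed to 3.37 to 4.73 FPKM in WT, 2.74 to 7.07 in line 1, 3.75 to 4.31 in line 2 and 165 to 198 in trb123, with none at 0 in any group. Their part in the wax gene values was not tested either.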

How the data were processed

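Polyadenylated RNA of 12 seedling libraries was sequenced, and the authors deposited FPKM values rounded to 2 decimals in 4 tables side by side, 1 per group. The submitters' processing notes name STAR 2.7.1, DESeq2 and TAIR10, with no role given. Decimal commas in the line 1 columns were read as points, repeated IDs (178 to 183 per table) were used once, and the tables were joined by gene ID. Genes with at least 1 FPKM in at least 3 libraries (18700) were tested on log2(FPKM + 1) with limma 3.58.1 in R 4.3.3 (1 mean per group over all 12 libraries, eBayes with trend, Benjamini-Hochberg over all tested genes); the pseudocount of 1 understates changes of low genes. The code was tested on simulated data. Depth was inferred from the steps of low FPKM values (22540000 to 24340000 fragments), and no count test was run. Names, coordinates and sequences came from RefSeq's TAIR10.1, to which 20020 IDs matched; TRB4 and TRB5 were named by gene ID. Replicates correlated at 0.973 to 0.996 within groups, and no more than 0.743% of genes had identical values in any pair of libraries.

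Members, gene lists, tests and alternatives were chosen with earlier results of these data known. Besides the members, the text names wax, cutin and suberin genes called with a change of at least 2-fold in line 2 or trb123 against WT, the 3 genes most like each of KCS1, CER1 and CER6, the TRB genes, and MYB30, WRI4 and the markers ATML1, PDF1, ACR4, CASP1 and MYB36, chosen after their values were seen. Other scalings, filters, pseudocounts, fits and thresholds and the leaving out of each library were the alternatives.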

Additional observations from a re-analysis of the deposited data

How the results depend on the processing

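There were 21 single results of the wax genes (7 genes, CER4 included, in 3 comparisons) and 22 alternative settings. Of the 462 values, 426 kept their direction and their side of the threshold, 23 lost and 8 gained a call, and 5 changed sign. None of the 5 was called: CER4 in line 2 against WT with the term for the split (-0.13), CER6 in line 2 against WT with that term (0.28), without WT replicate 2 (0.05) and without line 2 replicate 3 (0.06), and KCS1 in trb123 against WT without WT replicate 2 (0.07). CER26 in line 2 against WT changed sign with the term for the split (0.03). The cause was not tested. Wax genes called in line 2 against WT numbered 2 with quantile scaling, 2 with the replicate number as a block, 0 with a 2-fold minimum and 1 to 2 when a library was left out. Without line 1 replicate 3 or without line 2 replicate 3 the gained call was CER4, so those counts are not read as support. In trb123 against WT (CER4 included) they numbered 3 at an adjusted p under 0.01, 0 with a 2-fold minimum, 2 with the term for the split and 3 to 5 when a library was left out, and in trb123 against line 2 they numbered 0 with a 2-fold minimum. Of the 35 other pathway genes, AT1G02190 and SHN2 included, 7 were called in line 2 against WT at an adjusted p under 0.01. With a 2-fold minimum 2 were called, and with the term for the split 0, against 0.679% of all genes. In trb123 against WT 8 were called with a 2-fold minimum, and with that term 12, against 28% of all genes. In trb123 against line 2 6 were called with a 2-fold minimum. Of all 18700 genes, 232 higher and 434 lower met that minimum in line 2 against WT. In trb123 they were 1510 and 1187 against WT and 1289 and 899 against line 2. The share of all genes is not given at an adjusted p under 0.01, with other scalings or with libraries left out. Deviations of same-numbered libraries correlated at 0.32 for replicate 2 and 0.22 for replicate 3 in line 2 against WT. All other same-numbered pairs of these comparisons lay between -0.06 and 0.05. The replicate numbers thus paired the libraries in part at most. The block gained CER3 in line 2 against WT (adjusted p = 0.0312). The term for the split raised the median SE of comparisons with WT from 0.126 to 0.207. Without a filter on low values WSD1 was not called (-0.12, -0.01 and 0.11, limma adjusted p = 0.505, 0.948 and 0.494 in the 3 comparisons). Over all alternatives the limma adjusted p of CER2 ran from 8.74e-06 to 0.00264, of CER5 from 0.00745 to 0.36 and of CER6 from 0.000149 to 0.358 in trb123 against WT; of CER1 from 0.00072 to 0.0478, of CER2 from 0.0258 to 0.493 and of CER3 from 0.0312 to 0.714 in line 2 against WT; and of CER2, CER5 and CER6 up to 0.00218, 0.0367 and 0.0169 in trb123 against line 2. Depth limits CER4 and WSD1, where few fragments stand behind a value.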
